A study of Homo sapiens with 12 samples.

Results

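LINC RNAs are the long non-coding RNAs that carry a LINC symbol followed by a number, the name given to transcripts that lie between coding genes and have no named function. Those expressed in 2 human testicular germ cell tumour lines are described here across 4 groups of cultures. Of the 63241 rows of the deposited table, 2301 (3.64%) carried such a symbol, and 158 of these rows (0.25% of the table) had a mean of at least 2 CPM (a read count scaled to library depth) in 1 or more of the 4 groups. CPM is the estimated count of a gene as a share of its library total, multiplied by 1e+06. The 158 rows hold 157 distinct symbols, because LINC00685 has 2 rows. The members were thus chosen by their group means of CPM, so the levels below are a description. A member that is high in a single group had to differ between groups to be chosen, and counts of changed members are to be read with that in mind.

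The lines are TCam-2, a seminoma line whose cells resemble primordial germ cells, and 2102 EP, an embryonal carcinoma line whose cells resemble pluripotent stem cells. Both lines were treated with I-BRD9 at 15 µM or with its solvent DMSO for 24 h. I-BRD9 is an inhibitor of the acetyl-lysine reader domain of BRD9, a protein found in non-canonical BAF, which remodels chromatin. TCam-2 was grown in RPMI and 2102 EP in DMEM, so line and medium cannot be told apart. The groups were TCam-2 with I-BRD9, TCam-2 with DMSO, 2102 EP with I-BRD9 and 2102 EP with DMSO, each with 3 libraries labelled as biological replicates, and the labels give the genotype WT for all 12. Whether the replicates were separate cultures is not stated beyond that label, and p-values measure the spread between these libraries, which may be technical.

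Most LINC RNAs are made by RNA polymerase II and are capped, spliced and polyadenylated like messenger RNAs, which is why a kit that primes from the poly(A) tail, as used here, can count them. As a class they are known to be less abundant than messenger RNAs and more restricted to single cell types. Pluripotent cells and germ cells are known for sets of such RNAs of their own, of which some lie next to genes for development and some, such as LINC00458, have been reported in human embryonic stem cells. For most of the RNAs named below no function is known, and a role is given only where one is established.

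The counts report transcript ends, so the end of a transcript is the stretch that the library sees. The last 100 bases of GENCODE 29 transcripts (GRCh38) of 6 members that carry main results are given next, 5′ to 3′ on the strand of the gene, with the poly(A) signal AATAAA or its variant ATTAAA in capitals where it falls in the last 50 bases. For each gene the longest transcript that holds such a signal was taken, and it was not tested whether the reads came from that end.
LINC00458: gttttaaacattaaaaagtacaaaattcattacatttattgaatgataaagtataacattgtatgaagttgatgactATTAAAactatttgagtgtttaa
LINC02387: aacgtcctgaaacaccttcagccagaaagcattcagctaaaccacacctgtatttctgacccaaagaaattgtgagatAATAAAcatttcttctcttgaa
LINC01013: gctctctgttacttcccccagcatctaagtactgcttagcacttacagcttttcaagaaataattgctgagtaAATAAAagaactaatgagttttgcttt
LINC00678: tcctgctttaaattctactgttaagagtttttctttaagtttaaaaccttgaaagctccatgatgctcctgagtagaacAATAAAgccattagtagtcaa
LINC01508: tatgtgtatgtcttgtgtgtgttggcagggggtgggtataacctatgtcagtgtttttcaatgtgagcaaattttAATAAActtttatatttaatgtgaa
LINC00221: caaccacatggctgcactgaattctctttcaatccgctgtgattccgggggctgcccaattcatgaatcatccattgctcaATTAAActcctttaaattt
Of the 650 GENCODE 29 transcripts of members, 250 (38.5%) held one of these signals in their last 50 bases, against 31.3% of 206694 transcripts of all genes. LINC00458 lies at chr13:54115783-54132866 on the minus strand, LINC02387 at chr12:31363481-31369301 (minus) and LINC01013 at chr6:132131915-132169374 (plus). LINC00678 lies at chr11:27617626-27634627 (minus), LINC01508 at chr9:90300902-90433505 (minus) and LINC00221 at chr14:106482439-106521073 (plus). All 6 are annotated there as non-coding genes with exons that overlap no coding gene's exons.

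Promoter sequence was available from RefSeq (GRCh38.p14, from 250 bases before to 50 bases after the start of the gene) for 94 member symbols. It is shown for LINC01356 and LINC01013, which fell in both lines, and for LINC00910 and LINC01508, whose changes differed between the lines. These promoters lie at chr1:112850594-112850893 (minus), chr6:132132322-132132621 (plus), chr17:43388849-43389148 (minus) and chr9:90433440-90433739 (minus). Capitals mark matches to a TATA box (TATAAA) or an E-box (CACGTG) on either strand.
LINC01356: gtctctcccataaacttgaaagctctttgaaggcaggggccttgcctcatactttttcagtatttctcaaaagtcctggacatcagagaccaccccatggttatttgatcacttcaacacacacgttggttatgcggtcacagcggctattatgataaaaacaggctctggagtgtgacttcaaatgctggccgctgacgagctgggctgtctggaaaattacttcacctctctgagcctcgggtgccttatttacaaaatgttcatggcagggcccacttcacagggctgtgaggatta
LINC01013: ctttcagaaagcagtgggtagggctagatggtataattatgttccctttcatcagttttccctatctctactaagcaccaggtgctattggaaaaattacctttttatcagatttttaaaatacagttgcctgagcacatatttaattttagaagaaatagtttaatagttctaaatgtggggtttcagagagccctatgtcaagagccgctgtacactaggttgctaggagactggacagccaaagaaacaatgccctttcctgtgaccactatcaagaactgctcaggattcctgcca
LINC00910: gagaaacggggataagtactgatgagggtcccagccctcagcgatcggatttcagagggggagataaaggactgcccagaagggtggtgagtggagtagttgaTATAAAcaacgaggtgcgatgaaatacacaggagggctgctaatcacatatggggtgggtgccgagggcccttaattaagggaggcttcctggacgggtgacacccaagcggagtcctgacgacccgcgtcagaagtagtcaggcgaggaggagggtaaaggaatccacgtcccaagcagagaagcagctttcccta
LINC01508: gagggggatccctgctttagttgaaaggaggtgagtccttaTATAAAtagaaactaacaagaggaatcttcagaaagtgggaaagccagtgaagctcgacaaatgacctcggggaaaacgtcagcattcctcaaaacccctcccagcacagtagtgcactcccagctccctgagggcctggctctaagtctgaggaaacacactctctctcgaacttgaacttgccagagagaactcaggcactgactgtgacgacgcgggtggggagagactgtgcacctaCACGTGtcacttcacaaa
A TATAAA was found in 12.8% of the 94 member promoters and in 12% of 27305 promoters of all genes, and a CACGTG in 6.38% against 7.43%. The AP-1 motif TGANTCA was found in 6.38% of member promoters against 7.76% of all, the CRE motif TGACGTCA in 1.06% against 1.98%, and the octamer ATGCAAAT in 1.06% against 1.8%. None of these motifs contains another, both strands were searched, and a match is a description of the letters only. The median ratio of observed to expected CpG was 0.496 in member promoters and 0.58 in all promoters, and 36.2% of member promoters had a ratio above 0.6, against 48.9% of all. The CpG ratio was thus lower in member promoters, and the shares with each motif lay close to those of all promoters.

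Of the 158 members, 152 were found in GENCODE 29. It lists 125 as lincRNA, 14 as processed transcripts, 8 as antisense and 1, LINC02693, as protein-coding under the older name C17orf51. Exons of 47 members overlapped an exon of another gene on either strand. The use of strand in counting is not given in the sources used here, so reads of such a pair cannot be told apart with certainty. A count more than 0.01 away from a whole number can arise where reads are divided between transcripts, and 46 members (29.1%) had such a fractional count in 1 or more libraries, against 29.2% of all 14386 genes at 2 CPM. The share among 235 expressed genes with an antisense symbol was 14%. Among members, 11 had fractional counts in 6 or more libraries, and LINC01881 and LINC03061 had them in all 12.

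Library totals ran between 7290335 and 10053366 estimated counts, and 3 counts, the floor used here, corresponded to between 0.298 and 0.412 CPM. Just outside the threshold lay LINC02980, LINC00265 and LINC01476, with highest group means of 1.94, 1.94 and 1.97 CPM, and just inside it LINC01152, LINC01748 and LINC02550, with 2.00, 2.04 and 2.13 CPM. All 158 members passed the filter on low counts that preceded the tests. Of markers named for the lines, the seminoma gene SOX17 averaged 46.0 CPM with I-BRD9 and 186 CPM with DMSO in TCam-2, against 0 and 0.0763 CPM in 2102 EP. All 8 seminoma markers had a higher mean in TCam-2 with DMSO than in 2102 EP with DMSO. Of 8 markers fixed for embryonal carcinoma, 6 had a lower mean in TCam-2 with DMSO, among them SOX2 with 16.4 CPM, against 461 CPM in 2102 EP with DMSO. The other 2 had a higher mean in TCam-2, namely POU5F1 with 669 CPM, against 381 CPM, and NANOG with 505 CPM, against 173 CPM.

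The 4 groups held similar numbers of these RNAs at 2 CPM or more, and a few RNAs made up much of the total. In TCam-2, 95 members stood at 2 CPM or more with I-BRD9 and 101 with DMSO, and in 2102 EP 107 with I-BRD9 and 100 with DMSO. Members at 10 CPM or more numbered 20 with I-BRD9 and 21 with DMSO in TCam-2, and 28 with I-BRD9 and 24 with DMSO in 2102 EP. The threshold was passed in all 4 groups by 49 members, in 3 groups by 19, in 2 groups by 60 and in 1 group by 30. By line, 38 members passed in TCam-2 groups and in no 2102 EP group, 44 in 2102 EP groups and in no TCam-2 group, and 76 in both lines. The median of the member means was 2.73 CPM with I-BRD9 and 3.03 CPM with DMSO in TCam-2, and 3.19 CPM with I-BRD9 and 2.86 CPM with DMSO in 2102 EP.

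The summed level of all members was lower with I-BRD9 in both lines, and 1 RNA in each line made up most of that gap. In TCam-2 the sums were 780, 824 and 822 CPM with I-BRD9, against 991, 990 and 983 CPM with DMSO. Without LINC02387 they were between 753 and 797 CPM with I-BRD9, against 804, 823 and 805 CPM with DMSO, which still did not overlap but lay closer together. In 2102 EP the sums were 1233, 1174 and 1235 CPM with I-BRD9, against 1755, 1725 and 1707 CPM with DMSO. Without LINC00458 they were 1184, 1125 and 1189 CPM with I-BRD9, against 1222, 1223 and 1175 CPM with DMSO, and the groups overlapped. LINC02387 was the most abundant member in TCam-2 with DMSO, with 18% of the summed member CPM, and LINC00458 was so in 2102 EP with DMSO, with 30.2%. The most abundant member held 5.25% in TCam-2 with I-BRD9 (LINC00665) and 7.72% in 2102 EP with I-BRD9 (LINC02582).

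**Figure D1:**
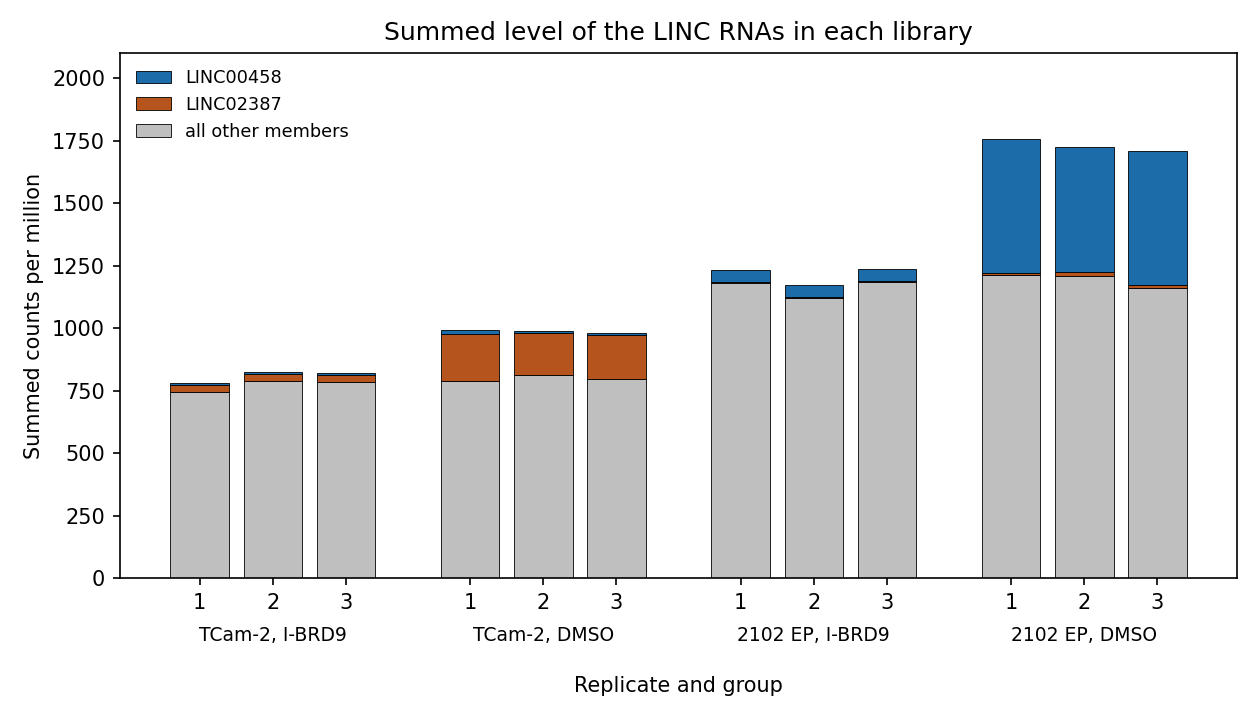
Summed CPM of the LINC RNAs in each library (y axis, linear, from 0), by replicate and group (x axis), with LINC00458 and LINC02387 drawn apart from all other members. The 3 libraries of 2102 EP with DMSO reach 1707 to 1755 CPM, with LINC00458 between 502 and 533 CPM, and in the 3 I-BRD9 libraries of that line the LINC00458 segment is between 46.3 and 49.0 CPM.

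The 2 lines differed in most of their LINC RNAs when both were kept in DMSO. At an adjusted p under 0.05 (edgeR's quasi-likelihood test, Benjamini-Hochberg adjusted over the 15614 genes tested), 47 members were higher and 54 lower in TCam-2 than in 2102 EP. This is 63.9% of members against 62.6% of all genes tested, of which 31.7% were higher and 30.8% lower, so the share of members called was near that of all genes. The median size of the difference was 1.5 on the log2 scale among members and 0.68 among all genes tested. Among the 49 members at 2 CPM or more in all 4 groups it was 0.75, with 53.1% called. That choice leaves out RNAs nearly absent from either line, and all genes tested carried no such filter, so the 2 sizes are not compared. Among the 235 expressed genes with an antisense symbol the median size was 1.02, with 59.1% called. With I-BRD9 in both lines, 45 members were higher and 66 lower in TCam-2 (70.3% of members), against 31.1% of all genes in each direction and 62.2% in either. Both rows of LINC00685 are in these counts, on opposite sides. With its 2 rows summed in the fit, LINC00685 was not called there (log2 difference 0.478, adjusted p = 0.133).

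Among RNAs higher in TCam-2, LINC00221, which lies at the immunoglobulin heavy chain locus, had 27.6, 26.3 and 32.7 CPM in TCam-2 with DMSO, against 0.114, 0 and 0 CPM in 2102 EP with DMSO. With 1 count in all in 2102 EP, the ratio over the groups was 730, with a 95% counting interval between 131 and 2.89e+04. LINC03020 had 20.6, 25.3 and 25.9 CPM in TCam-2 with DMSO, against 0.227, 0.23 and 0 CPM in 2102 EP with DMSO. In each case all TCam-2 libraries lay far above all 2102 EP libraries. LINC02593, LINC01820 and LINC01230 had no count in 2102 EP with DMSO, and their levels in TCam-2 with DMSO were at least 59.1-fold, 43.8-fold and 30-fold higher than a floor of 3 counts over the group. LINC01230 lies 1217 bp from DMRT2, a gene of the family that includes the sex-determining DMRT1, and DMRT2 itself averaged 0.604 CPM in TCam-2 with DMSO and 0.0758 CPM in 2102 EP with DMSO. LINC02387 had 187, 168 and 178 CPM in TCam-2 with DMSO, against 10.12, 14.1 and 14.5 CPM in 2102 EP with DMSO, a log2 difference of 3.82 ± 0.119 (SE, adjusted p = 1.15e-17). LINC02878 averaged 35.9 ± 4.45 CPM in TCam-2 with DMSO and 1.42 ± 0.133 CPM in 2102 EP with DMSO (SD, n = 3 each).

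Among RNAs lower in TCam-2, LINC01508 had no count in TCam-2 with DMSO, against 26, 27.8 and 27.1 CPM in 2102 EP with DMSO, which places it at least 243-fold lower in TCam-2. LINC02582 had 0.114, 0.305 and 0.47 CPM in TCam-2 with DMSO, against 77.2, 65.8 and 74.9 CPM in 2102 EP with DMSO, a log2 difference of -7.84 ± 0.21 (SE, adjusted p = 9.96e-19). It had fractional counts in 6 libraries, so part of its reads may belong to another gene. LINC03077, on the X chromosome, had 0.114, 0 and 0 CPM in TCam-2 with DMSO, against 29.1, 22.8 and 21.6 CPM in 2102 EP with DMSO. LINC00458 had 15.2, 10.8 and 8.11 CPM in TCam-2 with DMSO, against 533, 502 and 533 CPM in 2102 EP with DMSO (log2 difference -5.49 ± 0.137, SE, adjusted p = 2.57e-18). LINC01405, an RNA known from striated muscle, averaged 3.02 CPM in TCam-2 with DMSO and 45.1 CPM in 2102 EP with DMSO. LINC00698, LINC02882 and LINC03076 also had no count in TCam-2 with DMSO, and were at least 78.9-fold, 56.9-fold and 36.2-fold lower there.

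**Figure D2:**
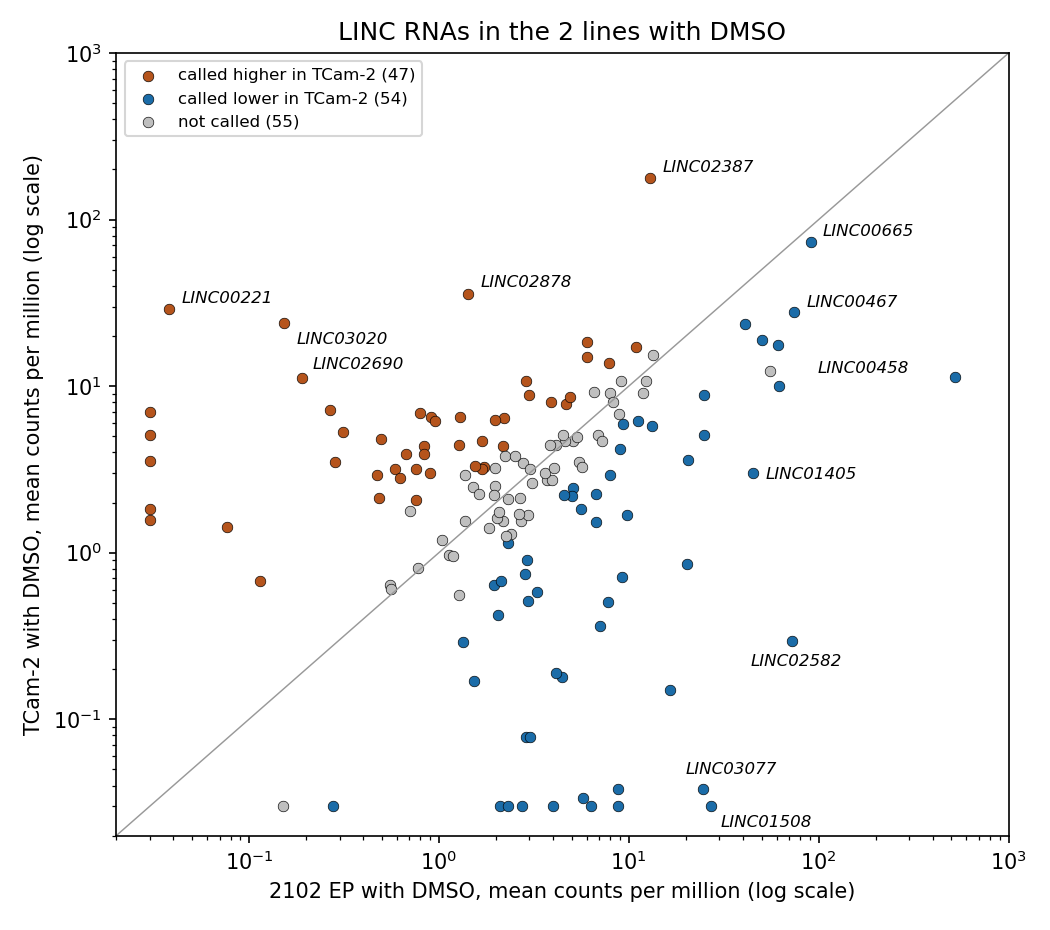
Mean CPM of each LINC RNA in TCam-2 with DMSO (y axis, log scale) against 2102 EP with DMSO (x axis, log scale). Points are genes, coloured by the call at an adjusted p under 0.05, the line marks equal levels, values under 0.03 CPM are drawn at 0.03, and the 2 rows of LINC00685 are left out. LINC02387 stands highest in TCam-2, LINC00458 lies farthest to the right, and a row of genes along each lower edge had no or almost no count in the other line.

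With I-BRD9, fewer LINC RNAs passed the test in TCam-2 than in 2102 EP. In TCam-2, 14 members rose and 25 fell, which is 24.7% of members. Of all genes tested there, 15.3% rose and 16.5% fell, 31.8% in either direction. In 2102 EP, 33 members rose and 36 fell, which is 43.7% of members. Of all genes tested in that line, 18.2% rose and 18.6% fell, 36.8% in either direction. The share of members called was thus below that of all genes in TCam-2 and above it in 2102 EP, and no test of that gap was made.

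The median change was -0.05 in TCam-2 and 0.07 in 2102 EP on the log2 scale, so members moved in both directions. The median size of the change was 0.51 in TCam-2 and 0.68 in 2102 EP among members, against 0.34 and 0.39 among all genes tested. When members were instead taken by the mean of the groups compared, 10 rose and 19 fell of 100 in TCam-2, and 26 rose and 32 fell of 109 in 2102 EP. Of the 49 members at 2 CPM or more in all 4 groups, 4 rose and 8 fell in TCam-2, and 11 rose and 12 fell in 2102 EP. The median size of the change among these 49 was 0.31 in TCam-2 and 0.51 in 2102 EP. All genes tested carried no such filter on level, so these sizes are not set against theirs. Genes with an antisense symbol numbered 32 that rose and 16 that fell of 235 in TCam-2, and 34 that rose and 26 that fell in 2102 EP. Their median size of change was 0.48 in TCam-2 and 0.50 in 2102 EP. A size above that of all genes tested was thus not particular to members.

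Among called members, 8 rose and 17 fell by 2-fold or more in TCam-2, and 23 rose and 27 fell by 2-fold or more in 2102 EP. The share of all genes tested that changed by that size was not computed, so these counts describe the members only. The count of rises in TCam-2 depended on single libraries. It was 9 without TCam-2 I-BRD9 replicate 2, 7 without TCam-2 I-BRD9 replicate 3 and 9 without TCam-2 DMSO replicate 3. In bulk RNA, fewer cells that make an RNA and less of that RNA per cell cannot be told apart.

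**Figure D3:**
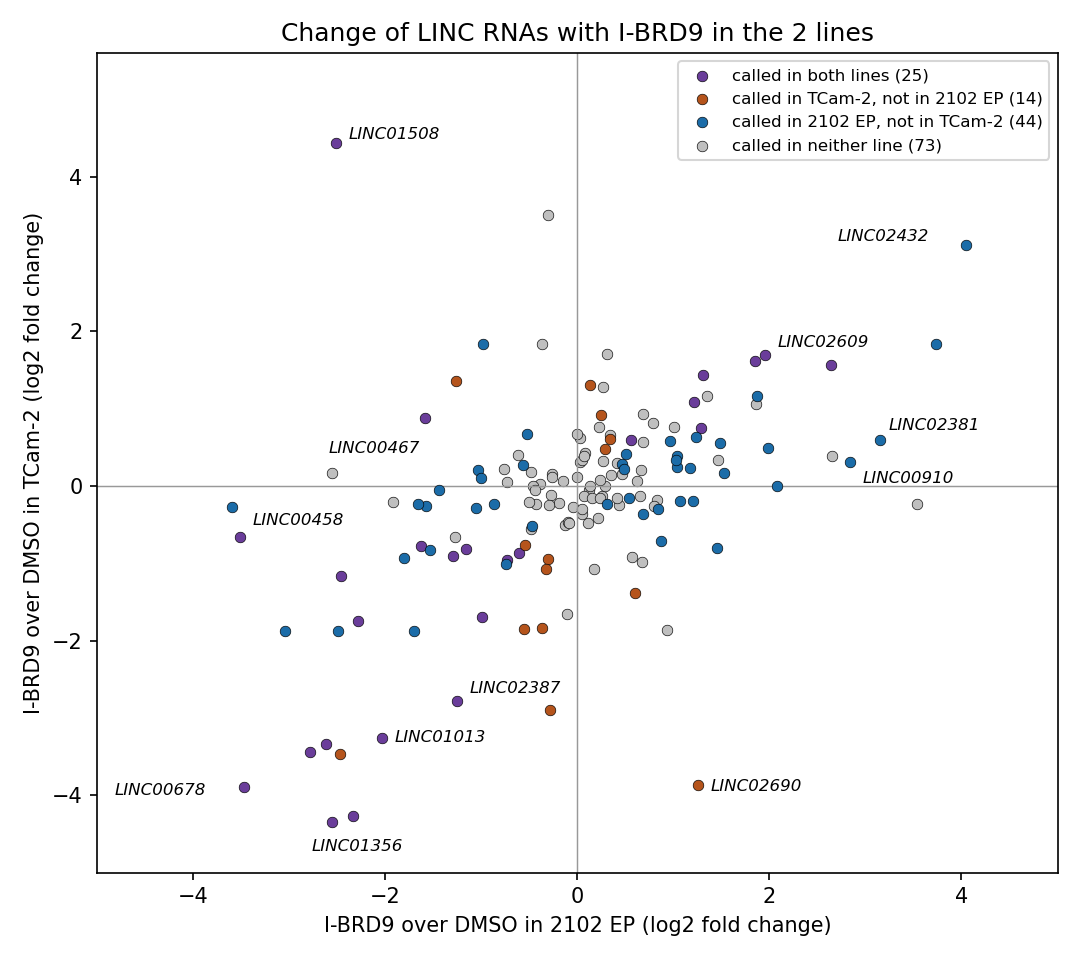
Log2 fold change of I-BRD9 over DMSO in TCam-2 (y axis) against 2102 EP (x axis) for the LINC RNAs that have 1 row each. Points are genes, coloured by whether the adjusted p was under 0.05 in both lines, 1 line or neither. Several members lie far down at the lower left, among them LINC01356 and LINC00678, while LINC01508 and LINC02690 lie in the other quadrants, and values of genes with few counts are imprecise.

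Calls in both lines were made for 25 members, of which 16 fell and 7 rose in both, and 2 rose in TCam-2 and fell in 2102 EP. That is 15.8% of members, against 18.5% of all genes tested. Of all genes, 8.26% rose in both lines, 8.51% fell in both and 16.8% did either. The direction was shared by 92% of the members called in both lines, against 90.6% of all such genes. Neither share is far from that of all genes. LINC01356 fell to 0.618, 0.97 and 1.19 CPM in TCam-2 with I-BRD9, against 15.7, 20.9 and 16.1 CPM with DMSO. In 2102 EP it fell to 12.2, 8.85 and 11.9 CPM with I-BRD9, against 62.2, 59.7 and 62.3 CPM with DMSO. The groups stood well apart in each line, with log2 fold changes of -4.34 ± 0.232 in TCam-2 (SE, adjusted p = 1.91e-12) and -2.55 ± 0.154 in 2102 EP (adjusted p = 1.39e-11). Its exons overlap those of LINC01357 on the other strand, which had 3.38, 4 and 4.17 CPM with I-BRD9 and 4, 5.18 and 6 CPM with DMSO in TCam-2. In 2102 EP LINC01357 had 6.31, 8.23 and 8.64 CPM with I-BRD9 and 7.73, 7.03 and 5.8 CPM with DMSO. The opposite-strand RNA, also a member, thus passed the test in neither line (adjusted p = 0.14 in TCam-2 and 0.743 in 2102 EP). SLC16A1, the nearest coding gene, which encodes a lactate transporter, lies 61204 bp away and had log2 fold changes of 0.24 in TCam-2 (adjusted p = 0.0118) and 0.0418 in 2102 EP (adjusted p = 0.685).

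LINC01013 had 2.29, 2.06 and 1.79 CPM in TCam-2 with I-BRD9, against 18.1, 16.3 and 22.3 CPM with DMSO, a log2 fold change of -3.26 ± 0.197 (SE, adjusted p = 1.6e-11). Its 2102 EP libraries had 15.4, 12.4 and 11 CPM with I-BRD9, against 53.4, 49.1 and 48.8 CPM with DMSO (log2 fold change -2.03 ± 0.151, adjusted p = 4.35e-10). Both LINC01356 and LINC01013 fell further in TCam-2, with differences of -1.79 ± 0.304 (adjusted p = 0.00023) and -1.23 ± 0.255 (adjusted p = 0.00179). LINC02387 had 26.7, 27 and 27.7 CPM in TCam-2 with I-BRD9, against 187, 168 and 178 CPM with DMSO (log2 fold change -2.78 ± 0.109, SE, adjusted p = 1.17e-14). Its 2102 EP libraries had 5.76, 5 and 6.3 CPM with I-BRD9, against 10.12, 14.1 and 14.5 CPM with DMSO (log2 fold change -1.25 ± 0.151, adjusted p = 9.08e-07). The libraries of each group lay close together in TCam-2, far from those of the other group. DENND5B, its nearest coding gene, 12922 bp away on the same strand, moved the other way. Its log2 fold changes were 0.793 in TCam-2 (adjusted p = 0.00209) and 1.43 in 2102 EP (adjusted p = 4.9e-06).

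LINC00678, reported in pluripotent stem cells, had 0.298, 0.242 and 0.357 CPM in TCam-2 with I-BRD9, against 4.58, 4.78 and 3.88 CPM with DMSO. Its 2102 EP libraries had 0, 0.312 and 0.7 CPM with I-BRD9, against 4.32, 4.15 and 3.03 CPM with DMSO. With I-BRD9 its level was near the floor of 3 counts in both lines. The log2 fold changes were -3.89 ± 0.505 in TCam-2 (SE, adjusted p = 2.79e-06) and -3.47 ± 0.503 in 2102 EP (adjusted p = 1.02e-05). BDNF, the neurotrophin gene 20266 bp from it on the same strand, averaged 0.846 CPM with I-BRD9 and 8.98 CPM with DMSO in TCam-2, and 0.229 CPM with I-BRD9 and 1.26 CPM with DMSO in 2102 EP. BDNF fell with it, with log2 fold changes of -3.49 in TCam-2 (adjusted p = 1.74e-06) and -2.42 in 2102 EP (adjusted p = 0.0048).

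Of the other members that fell in both lines, LINC00458 is described with the members whose change differed between the lines. LINC00937, at chr12:8295986-8396803, had 1.19, 0.606 and 0.595 CPM with I-BRD9 and 8.47, 7.32 and 9.88 CPM with DMSO in TCam-2. In 2102 EP LINC00937 had 0.686, 0.938 and 0.583 CPM with I-BRD9 and 5.46, 6.45 and 2.89 CPM with DMSO. Its exons overlap a pseudogene, so its reads are less certain. LINC01484 and LINC00824 had log2 fold changes of -3.34 and -4.27 in TCam-2, and of -2.62 and -2.34 in 2102 EP. LINC00824 lies 663835 bp from MYC, its nearest coding gene in GENCODE 29. LINC00665, for which a role in several carcinomas has been reported, had 40.6, 43.4 and 43.5 CPM with I-BRD9 and 73.8, 75.1 and 71.2 CPM with DMSO in TCam-2. In 2102 EP LINC00665 had 77.9, 55.8 and 53.4 CPM with I-BRD9 and 86.7, 93.8 and 91.2 CPM with DMSO. Its fall was modest but past the test in each line, with log2 fold changes of -0.87 ± 0.118 in TCam-2 (adjusted p = 5.63e-06) and -0.60 ± 0.115 in 2102 EP (adjusted p = 0.000259). LINC02617, LINC01597, LINC00869, LINC00504, LINC01503, LINC01224, LINC00623 and LINC00458 complete the 16, and those of them outside the rule for named genes are named for being in this count, after their values were seen.

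Members that rose in both lines were LINC00205, LINC02609, LINC01521, LINC02550, LINC02696, LINC01719 and LINC02851. LINC00205, studied in hepatocellular carcinoma, was the most abundant of them, with 34.8, 40.1 and 38.8 CPM with I-BRD9 and 22.8, 26.6 and 21.9 CPM with DMSO in TCam-2. In 2102 EP LINC00205 had 68.2, 58.8 and 62.6 CPM with I-BRD9 and 39.2, 40.8 and 43 CPM with DMSO. Its libraries did not overlap in either line, and the log2 fold changes were close, at 0.60 ± 0.112 in TCam-2 (adjusted p = 0.00024) and 0.56 ± 0.106 in 2102 EP (adjusted p = 0.000227). LINC02609 had 3.28, 3.64 and 4.88 CPM with I-BRD9 and 1.72, 1.12 and 0.588 CPM with DMSO in TCam-2. In 2102 EP LINC02609 had 8.5, 10.7 and 8.98 CPM with I-BRD9 and 1.48, 3.57 and 1.89 CPM with DMSO. Its log2 fold changes were 1.69 ± 0.373 in TCam-2 (adjusted p = 0.00118) and 1.95 ± 0.325 in 2102 EP (adjusted p = 5.71e-05). LINC01521, 545 bp from PATZ1, a zinc finger transcription factor gene, rose by 1.43 in TCam-2 and 1.31 in 2102 EP on the log2 scale. PATZ1 fell in both lines, by 0.509 and 0.679 on that scale. In TCam-2 the call of LINC02550 was lost without replicate 1 or 3 of I-BRD9, or replicate 1 or 2 of DMSO, with adjusted p up to 0.0901. That of LINC02696 was lost there without replicate 2 or 3 of either treatment (up to 0.134), with DESeq2 (0.065) and with no filter on low counts (0.0591), and in 2102 EP without replicate 2 of I-BRD9 or replicate 3 of DMSO (up to 0.0701). That of LINC01719 was lost in TCam-2 without replicate 2 or 3 of I-BRD9, or replicate 1 or 3 of DMSO (up to 0.137).

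The effect of I-BRD9 differed between the lines for 19 members. The difference of the log2 fold changes (TCam-2 minus 2102 EP) was positive in 7 members and negative in 12, which is 12% of members. Of all genes tested, 5.9% had a positive and 7.19% a negative difference, 13.1% in either direction. The share of members called was thus near that of all genes. The count of positive differences was 4 without 2102 EP I-BRD9 replicate 2 or 3, or without 2102 EP DMSO replicate 3.

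LINC00458, an RNA enriched in human pluripotent stem cells, gave the widest gap in CPM. It had 7.26, 7.03 and 8.45 CPM in TCam-2 with I-BRD9, against 15.2, 10.8 and 8.11 CPM with DMSO, where the groups overlapped. In 2102 EP it had 49.0, 48.9 and 46.3 CPM with I-BRD9, against 533, 502 and 533 CPM with DMSO, and the groups stood far apart. The log2 fold changes were -0.66 ± 0.163 in TCam-2 (SE, adjusted p = 0.00353) and -3.51 ± 0.119 in 2102 EP (adjusted p = 7.14e-15), and their difference was 2.85 ± 0.203 (adjusted p = 2.87e-09). No coding gene lies near it, since OLFM4, the nearest in GENCODE 29, is 1063726 bp away and had no count in any group. Markers of the tumour types also moved with I-BRD9. Of the 8 embryonal carcinoma markers, all 8 fell in 2102 EP, where their sum ran between 676 and 718 CPM with I-BRD9 and between 2334 and 2460 CPM with DMSO. In TCam-2, 6 of the 8 fell, and the sum ran between 408 and 435 CPM with I-BRD9 and between 1256 and 1350 CPM with DMSO. Of 7 seminoma markers tested, 1 rose and 4 fell in TCam-2, and 2 fell in 2102 EP. The sum of all 8 seminoma markers ran between 1305 and 1495 CPM with I-BRD9 and between 1570 and 2020 CPM with DMSO in TCam-2. In 2102 EP it ran between 157 and 175 CPM with I-BRD9 and between 219 and 326 CPM with DMSO. The part of these shifts in the fall of LINC00458 was not tested. Of 7 markers of Sertoli, Leydig, blood and fibroblast cells, 2 were abundant enough to test and neither was called in either line. LINC01108, also reported in embryonic stem cells, had 0, 0 and 0 CPM in TCam-2 with I-BRD9 and 0, 0.102 and 0 CPM with DMSO. In 2102 EP LINC01108 had 1.24, 1.25 and 0.7 CPM with I-BRD9 and 5.34, 5.76 and 6.18 CPM with DMSO, a log2 fold change of -2.49 ± 0.423 (adjusted p = 9.64e-05).

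LINC01508 had 0.199, 0.606 and 0.119 CPM in TCam-2 with I-BRD9, against no count with DMSO, and 3.84, 6.46 and 4.43 CPM in 2102 EP with I-BRD9, against 26, 27.8 and 27.1 CPM with DMSO. The fall in 2102 EP was -2.51 ± 0.227 on the log2 scale (SE, adjusted p = 2.85e-08). The rise in TCam-2 rests on 8 counts against 0, a level at least 2.71-fold higher when the group without counts is set to 3, and its adjusted p of 0.00868 became 0.0761 without TCam-2 I-BRD9 replicate 2. LINC01950 had no count in TCam-2 with I-BRD9 and 0.114, 0 and 0 CPM with DMSO. In 2102 EP LINC01950 had 1.51, 1.04 and 0.816 CPM with I-BRD9 and 8.87, 9.1 and 8.46 CPM with DMSO, a log2 fold change of -3.04 ± 0.377 (adjusted p = 2.28e-06). For RNAs with almost no count in TCam-2 with DMSO, a fall in that line was not detectable at this depth.

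LINC00467, which MYCN is known to repress in neuroblastoma, had 35.8, 34.1 and 32.5 CPM in TCam-2 with I-BRD9, against 24.8, 32.1 and 27.2 CPM with DMSO. In 2102 EP it had 37.5, 38.6 and 38 CPM with I-BRD9, against 69.4, 78.3 and 74.6 CPM with DMSO. The log2 fold changes were 0.207 ± 0.109 in TCam-2 (adjusted p = 0.16) and -1.03 ± 0.105 in 2102 EP (adjusted p = 7.15e-08), with a difference of 1.23 ± 0.151 (adjusted p = 4.22e-06). With I-BRD9 the level in 2102 EP thus came near that of TCam-2, and the lines no longer passed the test there (adjusted p = 0.298). TRAF5, a gene of an adaptor of tumour necrosis factor receptors 7857 bp away on the same strand, rose in both lines, by 0.873 in TCam-2 and 0.98 in 2102 EP on the log2 scale.

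LINC00910 showed the opposite pattern. It had 4.18, 3.64 and 3.57 CPM in TCam-2 with I-BRD9, against 3.55, 2.44 and 2.82 CPM with DMSO. In 2102 EP it had 62.8, 55.7 and 60.3 CPM with I-BRD9, against 6.82, 7.95 and 9.09 CPM with DMSO. The rise in 2102 EP was 2.84 ± 0.154 on the log2 scale (SE, adjusted p = 1.99e-12), the value in TCam-2 was 0.306 ± 0.208 (adjusted p = 0.288), and the difference was -2.54 ± 0.262 (adjusted p = 3.29e-07). Its exons overlap those of RNU2-4P, a pseudogene of a spliceosomal RNA, on the same strand, so its reads are less certain. LINC02381, beside the HOXC cluster on chromosome 12, had 4.18, 6.67 and 7.98 CPM with I-BRD9 and 4.69, 4.47 and 2.59 CPM with DMSO in TCam-2. In 2102 EP LINC02381 had 5.49, 6.88 and 6.53 CPM with I-BRD9 and 0.796, 0.461 and 0.757 CPM with DMSO. It rose in 2102 EP by 3.15 ± 0.367 (adjusted p = 5.24e-07), and the difference was -2.56 ± 0.474 (adjusted p = 0.000573). With I-BRD9 its level in 2102 EP lay within the range of the TCam-2 libraries.

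LINC02690 had 0.298, 1.09 and 1.07 CPM in TCam-2 with I-BRD9, against 11.9, 11.3 and 10.5 CPM with DMSO, and 0.549, 0.417 and 0.583 CPM in 2102 EP with I-BRD9, against 0.341, 0.23 and 0 CPM with DMSO. It fell in TCam-2 by 3.87 on the log2 scale (SE 0.389, adjusted p = 6.92e-08), to a level near that of 2102 EP, and the difference between the lines was -5.12 ± 0.814 (adjusted p = 0.000109). LINC02754 had 0.696, 0.849 and 0.476 CPM in TCam-2 with I-BRD9, against 7.21, 5.39 and 8.94 CPM with DMSO (log2 fold change -3.46 ± 0.479, adjusted p = 6.64e-06). In 2102 EP LINC02754 had 0.137, 0 and 0 CPM with I-BRD9 and 0.568, 0.23 and 0 CPM with DMSO, and the difference did not pass the test (adjusted p = 0.875). LINC00461, the host transcript of the neuronal microRNA miR-9-2, had 0.895, 1.58 and 0.834 CPM with I-BRD9 and 2.29, 2.98 and 2.94 CPM with DMSO in TCam-2. In 2102 EP LINC00461 had 7.13, 5.42 and 5.2 CPM with I-BRD9 and 4.09, 3.58 and 3.48 CPM with DMSO. It fell in TCam-2 (log2 fold change -1.38 ± 0.344, adjusted p = 0.00328), the change in 2102 EP did not pass the test (0.60 ± 0.284, adjusted p = 0.105), and it had fractional counts in 4 libraries. LINC00632, whose locus gives rise to the circular RNA CDR1-AS, averaged 14.8 CPM with I-BRD9 and 17.2 CPM with DMSO in TCam-2, and 20.5 CPM with I-BRD9 and 10.9 CPM with DMSO in 2102 EP. It rose in 2102 EP by 0.845 ± 0.147 (adjusted p = 9.23e-05), and the difference was -1.14 ± 0.206 (adjusted p = 0.000432).

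**Figure D4:**
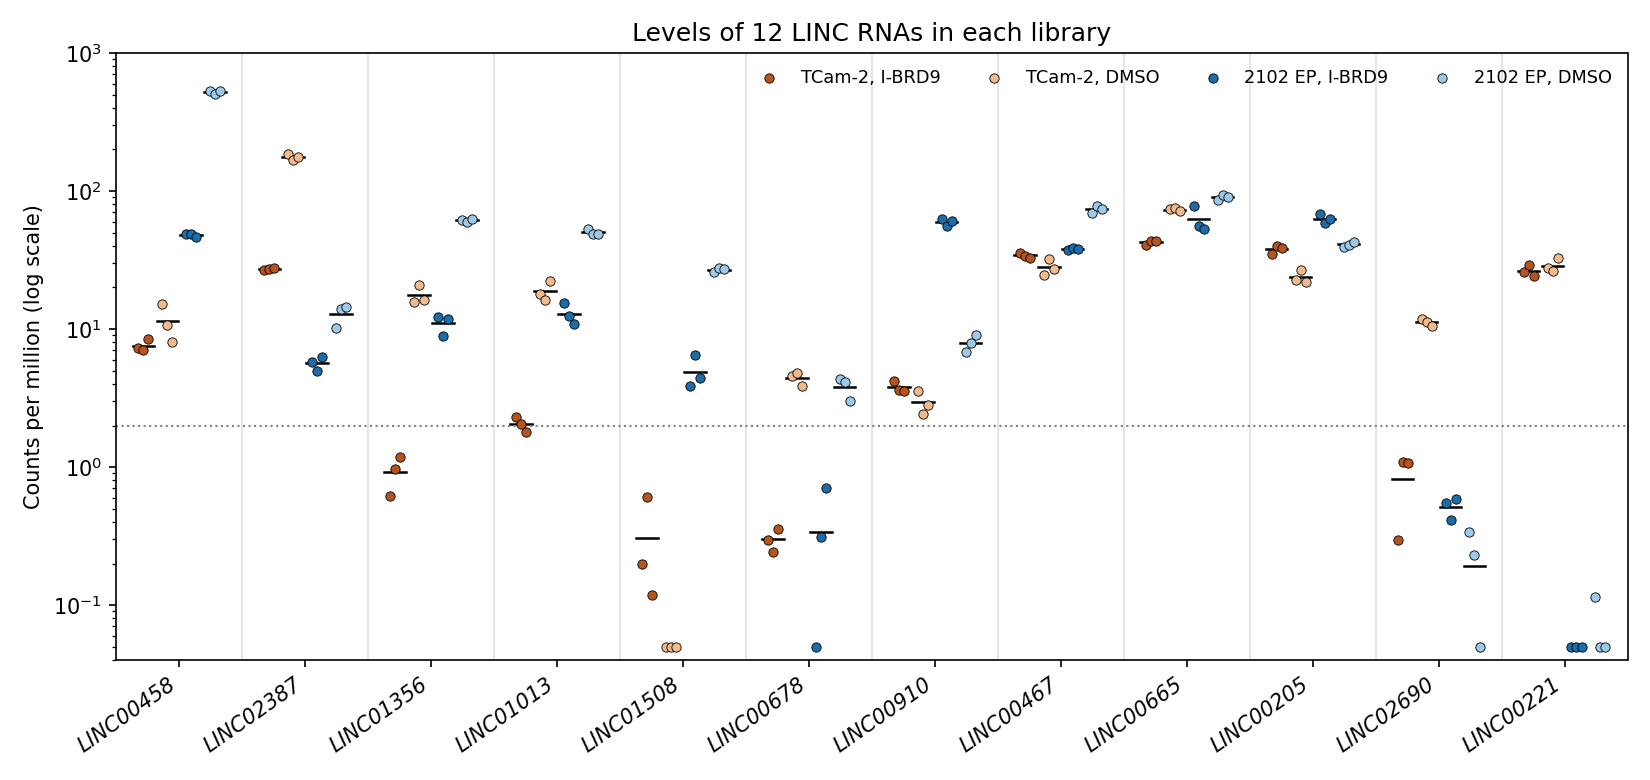
CPM of 12 LINC RNAs in each library (y axis, log scale), with the genes along the x axis and the 4 groups side by side. Points are libraries, short bars are group means, the dotted line is the threshold of 2 CPM, and values under 0.05 CPM are drawn at 0.05. LINC00458, LINC01508 and LINC00467 fall in 2102 EP, LINC02387 falls further in TCam-2 than in 2102 EP, and LINC02690 falls in TCam-2. LINC00910 rises in 2102 EP, and LINC00221 has almost no count in 2102 EP.

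Further rises in 2102 EP came from RNAs of low abundance with DMSO, with group means under 3 CPM. LINC02432 had 0.0995, 0 and 0.238 CPM with I-BRD9 and no count with DMSO in TCam-2. In 2102 EP it had 2.19, 2.19 and 4.48 CPM with I-BRD9 and 0.455, 0 and 0 CPM with DMSO (log2 fold change 4.05 ± 0.804, adjusted p = 0.000467). LINC01647 had 3.98, 3.33 and 4.73 CPM in 2102 EP with I-BRD9, against 0, 0.576 and 0.252 CPM with DMSO (log2 fold change 3.74 ± 0.65, adjusted p = 0.000124). In 2102 EP both RNAs thus stood above 2 CPM in each I-BRD9 library and below it in each DMSO library. LINC02204 had no count in TCam-2, and in 2102 EP 11.5, 12.2 and 7 CPM with I-BRD9 against 1.36, 2.07 and 3.53 CPM with DMSO (log2 fold change 2.08 ± 0.368, adjusted p = 0.000204). LINC01135 lies 801 bp from JUN, which encodes a subunit of AP-1, and had 1.24, 4.48 and 1.17 CPM in 2102 EP with I-BRD9 against 0.796, 0.23 and 0.631 CPM with DMSO. Its call (adjusted p = 0.0115) was lost without 2102 EP I-BRD9 replicate 2 (adjusted p = 0.235) or DMSO replicate 2 (adjusted p = 0.0692). JUN itself rose in both lines, by 1.64 in TCam-2 and 1.53 in 2102 EP on the log2 scale.

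Of 36 LINC genes listed for a role known from the literature, 23 were members. In TCam-2, 2 of the 23 rose and 4 fell, and in 2102 EP 8 rose and 7 fell. Of all genes tested, 31.8% were called in TCam-2 and 36.8% in 2102 EP. Those that rose in TCam-2 were LINC00205 and LINC00662, and those that fell were LINC00458, LINC00665, LINC00678 and LINC00294. LINC00662 had 11, 11.8 and 12.6 CPM with I-BRD9 and 6.52, 5.18 and 6.11 CPM with DMSO in TCam-2, a log2 fold change of 0.92 ± 0.176 (adjusted p = 0.000305). In 2102 EP LINC00662 had 10.8, 12.6 and 11.1 CPM with I-BRD9 and 8.52, 8.98 and 10.5 CPM with DMSO, and did not pass the test (adjusted p = 0.287). The exons of LINC00662 overlap those of LINC02987, also a member, on the other strand, so its reads are less certain. In TCam-2, LINC02987 had 8.85, 8.97 and 8.1 CPM with I-BRD9 and 5.95, 6.2 and 6.35 CPM with DMSO (adjusted p = 0.0869). LINC00294 fell in TCam-2 by 0.76 on the log2 scale, and its adjusted p of 0.00909 became 0.0547 without TCam-2 I-BRD9 replicate 1. Its exons overlap those of CSTF3 on the other strand, so its reads are less certain. CSTF3 had 72.3, 70.3 and 67.3 CPM with I-BRD9 and 93.7, 93.7 and 85.7 CPM with DMSO in TCam-2 (log2 fold change -0.454, adjusted p = 0.000776). In 2102 EP, LINC00667 had 19.3, 18.1 and 21.3 CPM with I-BRD9 and 9.89, 7.95 and 9.46 CPM with DMSO, a log2 fold change of 1.04 ± 0.175 (adjusted p = 6.24e-05). LINC00472, linked in breast cancer to a better outcome, rose in 2102 EP by 1.45 ± 0.404 (adjusted p = 0.00706, and 0.051 without 2102 EP I-BRD9 replicate 1). The rises of LINC00641, LINC00680, LINC01128 and LINC01278 in 2102 EP each lost their call with DESeq2 (adjusted p = 0.0678, 0.0892, 0.0557 and 0.0772) and without 1 library. Without 1 library their adjusted p reached 0.146 (2102 EP DMSO replicate 2), 0.143 (2102 EP DMSO replicate 1), 0.0999 and 0.113 (both 2102 EP I-BRD9 replicate 2). The call of LINC00545 was lost without any 1 of the 6 libraries of 2102 EP (adjusted p up to 0.0879), and that of LINC00649 without 2102 EP DMSO replicate 3 (adjusted p = 0.0507). LINC00324 and LINC01405, with group means of more than 8 CPM in 2102 EP, passed the test in neither line.

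Members and their nearest coding genes moved in the same direction in some pairs and in opposite directions in others. A tested coding neighbour was found for 114 members, and Pearson's r of the log2 fold changes over these pairs was -0.0089 in TCam-2 and 0.145 in 2102 EP. Over the 43 pairs within 10 kb it was -0.187 in TCam-2 and -0.0298 in 2102 EP. Both sets of pairs include LINC00685 with GTPBP6, at log2 fold changes of -7.83 against 2.3 in TCam-2 and 4.21 against -1.35 in 2102 EP. That LINC00685 value is from a single row of a gene whose reads changed rows between libraries, as described below. Pearson's r was not computed without this pair, so its sign is not interpreted. Both partners were called in 13 pairs in TCam-2, 4 of them in the same direction, and in 25 pairs in 2102 EP, 16 of them in the same direction. The matching shares for all genes and their neighbours were not computed, so these counts are not read as a trait of members or of a line. These correlations are descriptions across genes, which share the same libraries and are not independent replicates.

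LINC00685 had its reads spread over 2 rows of the table. The gene lies in the pseudoautosomal region, at chrX:320990-321851 in GENCODE 29. In every library all its reads were in 1 of the rows, as whole numbers. The row was the same in the 3 libraries of each I-BRD9 group, but not the same row in the 2 lines, and it varied within both DMSO groups. That the rows are copies of 1 gene rests on their shared symbol, since GENCODE 29 holds the ID of 1 of them. As single rows the gene was not called for I-BRD9 against DMSO in TCam-2 or in 2102 EP. Between the lines with I-BRD9, 1 row was called lower and the other higher in TCam-2 (adjusted p = 0.0348 and 0.00933). The fit of the gene as a sum did not call it there (adjusted p = 0.133). Summed over both rows, it had 186, 154 and 169 counts in TCam-2 with I-BRD9, against 32, 89 and 68 with DMSO, and 136, 132 and 81 counts in 2102 EP with I-BRD9, against 21, 18 and 26 with DMSO. That is 19.1 ± 0.891 CPM with I-BRD9 and 6.9 ± 2.85 CPM with DMSO in TCam-2, and 14 ± 4.61 CPM with I-BRD9 and 2.58 ± 0.627 CPM with DMSO in 2102 EP (SD, n = 3 each). With the rows summed in the fit, LINC00685 rose in TCam-2 by 1.38 ± 0.281 (adjusted p = 0.0012) and in 2102 EP by 2.37 ± 0.327 (adjusted p = 2.96e-05) on the log2 scale. The 2 rows were summed after the data had been seen, and these calls hold for the sum if both are the same gene. The groups did not overlap in either line, and the difference between the lines did not pass the test (adjusted p = 0.162).

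**Figure D5:**
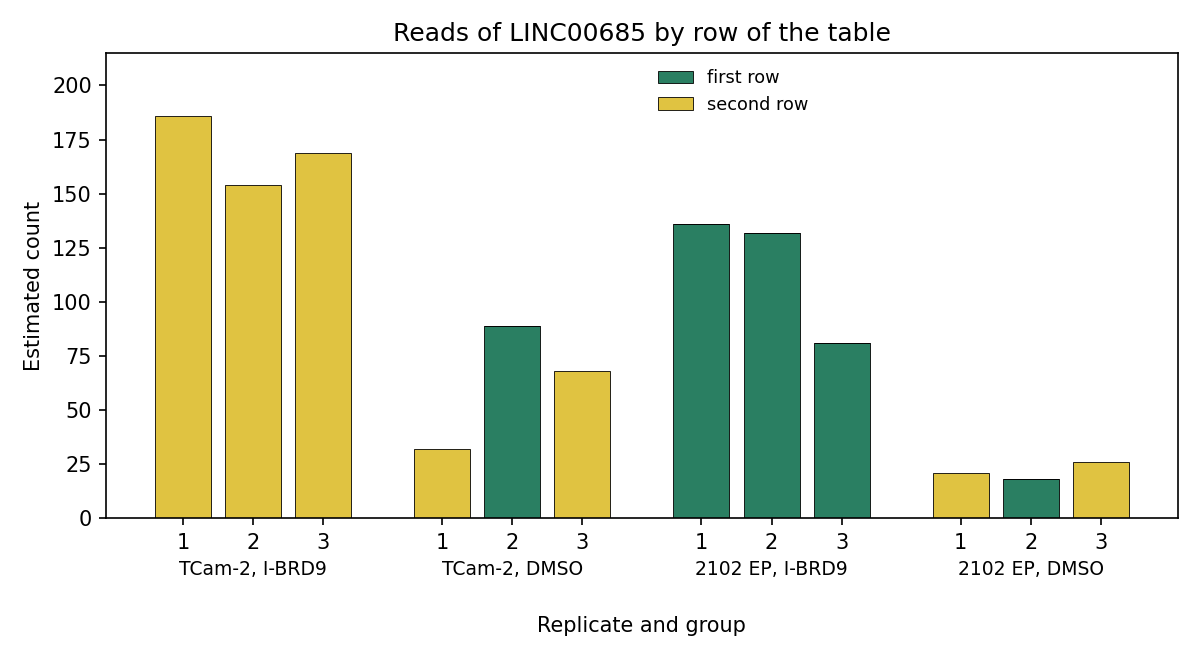
Estimated counts of LINC00685 in each library (y axis, linear, from 0), by replicate and group (x axis), coloured by the row of the table that held them. Each library has counts in 1 row alone, and the bars of the I-BRD9 libraries stand above those of the DMSO libraries in both lines.

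LINC03031 is a second RNA whose level is uncertain. It had 11.8, 12.8 and 9.17 CPM in TCam-2 with I-BRD9, against 17.2, 9.15 and 10.9 CPM with DMSO, and 11.9, 22.4 and 88.3 CPM in 2102 EP with I-BRD9, against 75.4, 74.1 and 15.9 CPM with DMSO. The 2102 EP libraries thus fell into high and low values within each group, and the comparison was not called (adjusted p = 0.649). The cause of this spread was not tested.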

How the data were processed

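Poly(A) RNA of 12 cultures was read from its 3′ end with a QuantSeq kit, per the labels' protocols, so values are not divided by length. The deposited table holds estimated counts per gene that the authors made with Trim Galore, STAR 2.7.11b and Salmon 1.9.0 on GRCh38, per the submitters' processing notes, which also name R 4.2.0 and DESeq2. Annotation and strand setting: not given in the sources used here. Expected counts were rounded and fitted with edgeR 4.0.16 in R 4.3.3 (TMM scaling, filterByExpr, robust quasi-likelihood test, 4 group means), with Benjamini-Hochberg adjustment over 15614 genes and a call at an adjusted p under 0.05. Printed CPM are without TMM. Each SE of a log2 value is approximate, derived from the test as the size of that value over the square root of the F statistic. Libraries held between 7290335 and 10053366 counts, and floors and intervals cover counting error only. The code was tested on simulated data. Alternatives were DESeq2 1.42.0, limma 3.58.1, other scalings, filters and member thresholds, replicate and library-code blocks, and each library left out. Named genes were the 8 largest called rises and falls in each line with groups that did not overlap, the 6 most positive and negative called differences between lines, the 8 largest called line differences each way with DMSO, the 10 most abundant members per group, and the list of known roles. Members and lists were chosen with earlier results of these data known. Items withheld for evaluation are not reported here.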

Additional observations from a re-analysis of the deposited data

Results flagged for a closer look

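For 19 members a test of the difference itself found that the I-BRD9 effect was not the same in the 2 lines. Values are log2 fold changes in TCam-2 minus those in 2102 EP, called at an adjusted p under 0.05 in edgeR's quasi-likelihood test. The difference was positive for LINC01508 (6.94), LINC00458 (2.85), LINC02253 (2.62), LINC02055 (2.47), LINC00467 (1.23), LINC00623 (0.85) and LINC00649 (0.83). The size for LINC01508 is imprecise, since its TCam-2 values rest on 8 counts with I-BRD9 against 0 with DMSO. Exons of LINC00649 overlap those of ATP5PO on the other strand, which had between 387 and 510 CPM, so the reads of LINC00649 are less certain. It was negative for LINC02690 (-5.12), LINC00562 (-2.61), LINC02381 (-2.56), LINC00910 (-2.54), LINC00472 (-2.25), LINC00461 (-1.98), LINC01356 (-1.79), LINC02387 (-1.54), LINC00960 (-1.26), LINC01013 (-1.23), LINC00632 (-1.14) and LINC00641 (-1.05). LINC00960 is outside the rule for named genes and had 5.67, 5.82 and 7.38 CPM with I-BRD9 and 6.18, 7.12 and 7.17 CPM with DMSO in TCam-2, and 20.6, 18.9 and 19 CPM with I-BRD9 and 8.07, 8.75 and 9.84 CPM with DMSO in 2102 EP.

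LINC02055 had 6.27, 6.67 and 5.72 CPM with I-BRD9 and 3.32, 3.56 and 2.7 CPM with DMSO in TCam-2. In 2102 EP LINC02055 had 0.137, 0.312 and 0.117 CPM with I-BRD9 and 0.796, 0.346 and 0.631 CPM with DMSO, near the floor of 3 counts. Its difference was lost without 2102 EP DMSO replicate 1 (adjusted p = 0.0659). LINC02253 had 3.68, 1.94 and 4.05 CPM with I-BRD9 and 0.458, 1.22 and 1.88 CPM with DMSO in TCam-2. In 2102 EP LINC02253 had 0.823, 0.208 and 0.35 CPM with I-BRD9 and 0.455, 1.38 and 1.26 CPM with DMSO, and its difference (adjusted p = 0.0401) was lost under several alternatives, with 0.122 without 2102 EP DMSO replicate 2.

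LINC00562 had 0.199, 0.242 and 0.595 CPM with I-BRD9 and 1.26, 3.56 and 2.59 CPM with DMSO in TCam-2, and 1.1, 1.25 and 1.52 CPM with I-BRD9 and 1.14, 1.38 and 2.02 CPM with DMSO in 2102 EP. Its difference (adjusted p = 0.0219) was lost without TCam-2 DMSO replicate 2 (adjusted p = 0.0827), TCam-2 I-BRD9 replicate 1 or 2, or 2102 EP DMSO replicate 1. LINC00623, with fractional counts in 10 libraries, had 8.65, 9.83 and 9.71 CPM with I-BRD9 and 16.8, 15.9 and 13.3 CPM with DMSO in TCam-2. In 2102 EP LINC00623 had 4.94, 4.41 and 4.21 CPM with I-BRD9 and 11, 14.8 and 14.2 CPM with DMSO. It fell in both lines, and the difference in size (adjusted p = 0.0286) was lost without any of 7 libraries, with adjusted p up to 0.0819.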

How the results depend on the processing

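Of 84 pairs of a named gene and a comparison, 23 lost the call under 1 or more alternatives, each of them when 1 library was left out, and none reversed. Of 263 alternative counts of called members, 250 lay within 1.5 times the count reported. In TCam-2 the 14 rises became 8 with DESeq2 and 9 among members at 5 CPM or more, and ranged between 7 and 15 with 1 library left out. With whole-number counts alone, rises in 2102 EP numbered 21, falls in TCam-2 15 and negative differences between the lines 7, which is a smaller set of genes. Among members at 5 CPM or more, 29 were higher in TCam-2 with DMSO and 41 were lower in TCam-2 with I-BRD9, also of a smaller set. With 1 library left out, positive differences between the lines numbered between 4 and 7.

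Whether the replicate numbers pair the libraries was not settled. Same-numbered deviations had r between -0.119 and 0.0961 in 2102 EP and between 0.0338 and 0.16 in TCam-2. Different-numbered deviations had r between -0.119 and 0.175 in 2102 EP and between -0.181 and 0.0481 in TCam-2. Library codes fall into blocks of neighbouring numbers, which match the replicate numbers in 2102 EP but not fully in TCam-2. There, I-BRD9 replicate 1 shares its block with DMSO replicate 2 (r = 0.0175), and I-BRD9 replicate 2 with DMSO replicate 1 (r = -0.0776). Deviations were taken from the mean of their own group, which holds the average of these r values low, so small values cannot show that pairing is absent. With the replicate number as a block, 12 members rose and 23 fell in TCam-2, 31 rose and 34 fell in 2102 EP, and 6 differences were positive and 11 negative. Between the lines, the block gave 47 higher and 52 lower with DMSO, and 44 higher and 62 lower with I-BRD9. The block ended the calls of LINC02696 in TCam-2 (adjusted p = 0.0502), of LINC00680 and LINC01278 in 2102 EP (0.0622 and 0.0524), and of LINC02253 in TCam-2 and for the difference (0.0591 and 0.0567). With the library codes as a block instead, 1 of the 84 pairs lost its call, that of LINC00680 in 2102 EP (0.0669).

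Summing the 2 rows of LINC00685, an alternative added after seeing the data, gave 15 rises in TCam-2 and 34 in 2102 EP. The floor of 3 counts is between 0.298 and 0.412 CPM per library, and calls of members near it in a line rest on few counts, such as that of LINC03020 in 2102 EP, on 0 counts with I-BRD9 and 4 with DMSO (adjusted p = 0.046).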
